A study of Eriocheir sinensis with 6 samples.

Results

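The genes described here are the long genes of inter-molt crab muscle, those that spanned at least 100 kb from the first to the last base of the gene model and were expressed at an intermediate level. They were chosen by the span and by the measured level, a mean of 1 to under 10 FPKM over 3 crabs (fragments per kilobase of gene model, scaled to the library size), among the EVM gene models on the sequences with CM names, the placed sequences of the assembly. This gave 195 genes of 28671 listed, or of 20625 EVM models on CM sequences. Both receptor genes set aside by name were outside these limits, so that setting them aside removed 0 genes.

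Inter-molt muscle of 3 wild-type, untreated juvenile crabs of the species Eriocheir sinensis, the Chinese mitten crab, was measured by RNA-seq, which gives transcript levels, and by ATAC-seq, in which a transposase cuts open chromatin and so marks accessible regions. The 6 libraries were 1 per crab and assay, and no other stage or treatment was measured. The replicates were separate animals. Because the gene identifiers carry no names or descriptions in the files, no function is given to any gene, and the tissue label was not checked against muscle markers.

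In animals, most of a long gene is intron, and its promoter can lie far from the other end of the transcript. Chromatin is commonly accessible at the promoters of transcribed genes, and introns can also hold accessible regions, such as enhancers, alternative promoters or sites bound by chromatin proteins. An ATAC-seq peak inside a gene gives the position of accessible chromatin but not the gene on which it acts. Below, the promoter is the transcription start site (TSS, the start of the model) with 2 kb on either side, and an intragenic peak is a peak in the rest of the span.

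Reads assigned to genes numbered 6772294, 7391379 and 7920094 in crabs 1, 2 and 3. The deposited FPKM used library sizes of 1.04, 1.27 and 0.491 times these totals, and how they were set is not stated in the sources used here. Plain totals were therefore used as a second scaling, and some results were also taken after scaling by the median ratio of genes between libraries. The ATAC libraries had 57320, 49574 and 56919 peaks, without read totals. With 3 libraries per assay the lowest p that an exact sign-flip test can give is 0.25, so no difference below was significant by that test.

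The 195 genes lay on 62 of the 72 CM sequences, with at most 7 on one, and 98 were on the plus and 97 on the minus strand. Their spans covered 2.80% of the CM sequences. The median span was 133 kb, from 100.3 to 699.09 kb, while the median gene model was only 2909 bases long, so that the model filled a median of 1.84% of the span. The rest, a median of 131 kb per gene, lay outside the model, and the files do not divide it into introns and untranslated parts. In 29 identifiers (14.9%) the names of 2 EVM models were joined, against 77 of 6964 EVM genes under 100 kb at the same level (1.11%). The span of a joined identifier depends on whether its models form 1 gene, which was not tested.

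At the lower edge of the span, evm.TU.CM024158.1.307, evm.TU.CM024121.1.315_evm.TU.CM024121.1.313 and evm.TU.CM024113.1.177 entered with 100303, 100563 and 101279 bases. The nearest genes left out were evm.TU.CM024116.1.245, evm.TU.CM024136.1.50 and evm.TU.CM024165.1.489, with 98766, 99143 and 99946 bases. At the lower limit of the level, evm.TU.CM024134.1.171, evm.TU.CM024166.1.143_evm.TU.CM024166.1.141 and evm.TU.CM024098.1.395 entered with mean levels of 1.01, 1.04 and 1.04 FPKM. Just below it stood evm.TU.CM024131.1.179, evm.TU.CM024131.1.329 and evm.TU.CM024118.1.465 with 0.977, 0.983 and 0.995 FPKM. At the upper limit, evm.TU.CM024111.1.385, evm.TU.CM024155.1.355 and evm.TU.CM024105.1.172 had 9.65, 9.78 and 9.95 FPKM, and evm.TU.CM024166.1.441, evm.TU.CM024156.1.93 and evm.TU.CM024137.1.119_evm.TU.CM024137.1.120 were left out at 10.5, 10.5 and 10.9 FPKM. Across the upper limit the values stepped from 9.95 to 10.5 FPKM, a wider step than between the neighbours on either side.

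The levels of the long genes were low and alike in crabs 1 and 2, and lower in crab 3. Their median level was 3.08, 3.11 and 2.33 FPKM in crabs 1, 2 and 3, and the median of the 3-crab mean was 2.83 FPKM (interquartile range 1.87 to 5.05). Behind these levels stood a median of 60, 81 and 24 reads per gene, with highest counts of 627, 808 and 231. No read was listed in crab 1 for 5 genes, in crab 2 for 3 genes and in crab 3 for 1 gene. Together the 195 genes took 0.287%, 0.357% and 0.0909% of the reads of the 3 libraries, a mean of 0.245% ± 0.138 (SD, n = 3). In these bulk samples fewer cells of a type and less RNA per cell cannot be told apart.

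The order of the crabs depended on the scaling. On the deposited FPKM, 76 genes (39.0%) were highest in crab 1, 71 (36.4%) in crab 2 and 48 (24.6%) in crab 3, and 116 were lowest in crab 3. On plain totals, 118 (60.5%) were highest in crab 2 and 17 (8.72%) in crab 3, and the medians became 3.20, 3.97 and 1.14 FPKM. Of the EVM genes under 100 kb at the same level, 30.6% were highest in crab 3 on the deposited values and 9.23% on plain totals, so that shorter genes shifted likewise.

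Of the 195 genes, 133 (68.2%) reached 1 FPKM in all 3 crabs, 48 in 2 crabs and 14 in 1 crab. The share was 32.7% over all genes listed and 68.0% over the 7160 EVM genes on CM sequences with a mean of 1 to under 10 FPKM, so the long genes stood at the share of their level class. In 23 genes at least 1 crab reached 10 FPKM. Across the 195 genes the level was not ordered by span (Spearman rho −0.0693) or by the length of the model (rho 0.0206), both given as descriptions over genes of the same libraries.

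The spread between crabs was taken as the range of log2(FPKM + 1), which understates the change of low genes, and a gene was called different at a range of at least 2, a 4-fold difference on that scale. The median range was 0.95, from 0.09 to 2.89, and the median SD was 0.50. A range of at least 2 was found in 12 long genes (6.15%), against 14.4% of all genes with a mean of at least 1 FPKM and 9.69% of the EVM genes in the same level class. The mean level itself chose these genes and bounds the range they can take, so the counts are descriptions. By span, the share was 11.8% under 10 kb, 7.49% from 10 to 50 kb, 5.93% from 50 to 100 kb and 6.15% from 100 kb, while the median number of reads per gene rose along the same classes, 20.0, 48.3, 54.2 and 59.0. Among genes with a mean of at least 30 reads, a limit chosen after seeing the data, 6 of 144 long genes (4.17%) and 6.70% of the shorter genes differed, with median SDs of 0.52 and 0.49.

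Crab 3 decided most of this spread. Crabs 1 and 2 alone had a 4-fold difference in 1 long gene, crabs 1 and 3 in 9 and crabs 2 and 3 in 6, and the median absolute log2 differences were 0.35, 0.72 and 0.74. Over the 195 genes rho was 0.773 for crabs 1 and 2. It was 0.393 for crab 1 with crab 3 and 0.407 for crab 2 with crab 3. With the genes chosen again without crab 3, the share with a 4-fold difference was 0.524% and the median SD 0.25, and without crab 1 the share was 3.02%. On plain totals 42 of the long genes (21.5%) differed, against 22.1% of all genes with a mean of at least 1 FPKM and 19.9% of the shorter genes at the same level. The long genes thus stood below their class on the deposited values and near it on plain totals. Of the 12 genes, 7 differed under both scalings. Chosen again on plain totals, the genes had a median SD of 0.77, and with a pseudocount of 0.1 in place of 1 the share was 25.1%. Chosen again after scaling by the median ratio of genes, they had a share of 5.38% and a median SD of 0.48.

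**Figure D1:**
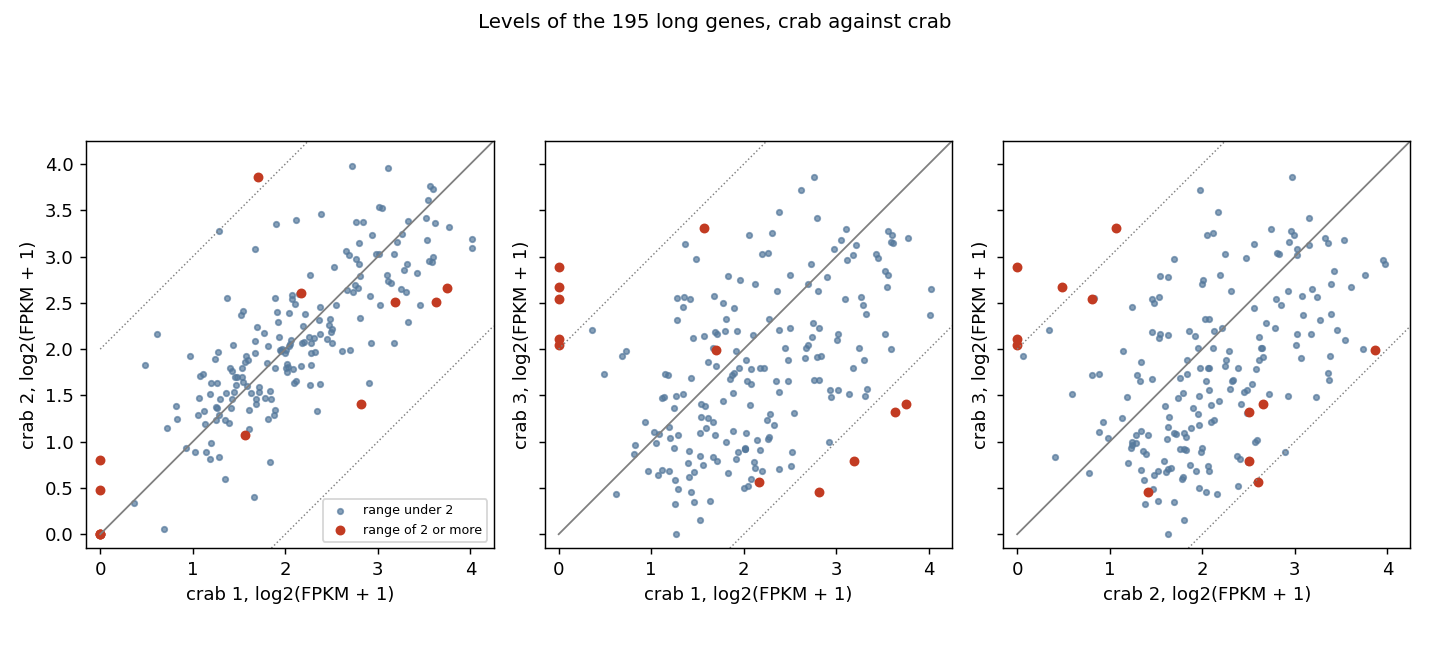
Each point is 1 of the 195 long genes, with log2(FPKM + 1) in one crab on the x axis and in another crab on the y axis. The solid line marks equal levels, the dotted lines a difference of 2 and red points the 12 genes with a range of at least 2. Points lie closer to the line between crabs 1 and 2 (rho 0.773) than between either and crab 3 (rho 0.393 and 0.407).

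The 3 genes with the widest range had most of their reads in crab 3. In evm.TU.CM024135.1.845 (CM024135.1, 28516062 to 28630586, minus strand), 0, 0 and 37 reads were found, a level of 0, 0 and 6.42 FPKM. Counting 3 reads as the limit that 0 allows in a library, its level was at least 22.3-fold higher in crab 3, and the gene had no peak in its promoter or span in any library. In evm.TU.CM024118.1.524, 0, 5 and 28 reads gave 0, 0.395 and 5.36 FPKM, at least 16.9-fold higher in crab 3 than in crab 1. Its promoter peak was found in crab 2 alone, with a fold enrichment of 3.59 over the local background. In evm.TU.CM024143.1.361, 0, 3 and 8 reads gave 0, 0.746 and 4.82 FPKM, at least 4.82-fold higher in crab 3 than in crab 1. Its model is 427 bases long, so that few reads made a level of several FPKM. On plain totals these bounds fell to 10.5-fold, 7.98-fold and 2.28-fold. They take the 37, 28 and 8 reads of crab 3 as exact, so that the sampling of those reads could lower them further.

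In the next 2 genes crab 3 was lowest. In evm.TU.CM024134.1.366, 40, 31 and 2 reads gave 8.11, 4.69 and 0.733 FPKM, and its promoter peak was found in crab 3 alone, the crab with the lowest level (fold enrichment 2.41). In evm.TU.CM024099.1.356_evm.TU.CM024099.1.357, 297, 109 and 10 reads gave 6.05, 1.66 and 0.368 FPKM, a 16.4-fold difference between crabs 1 and 3 without a promoter peak in any library. Of the 12 genes, 6 were highest in crab 3, 4 in crab 1 and 2 in crab 2. No read was found in at least 1 crab for 5 of them, 6 had fewer than 50 reads in every crab, 6 had no promoter peak in any library and 2 had an intragenic region open in all 3 libraries. Over all 195 long genes, 71 (36.4%) had no promoter peak in any library and 108 (55.4%) had such an intragenic region.

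**Figure D2:**
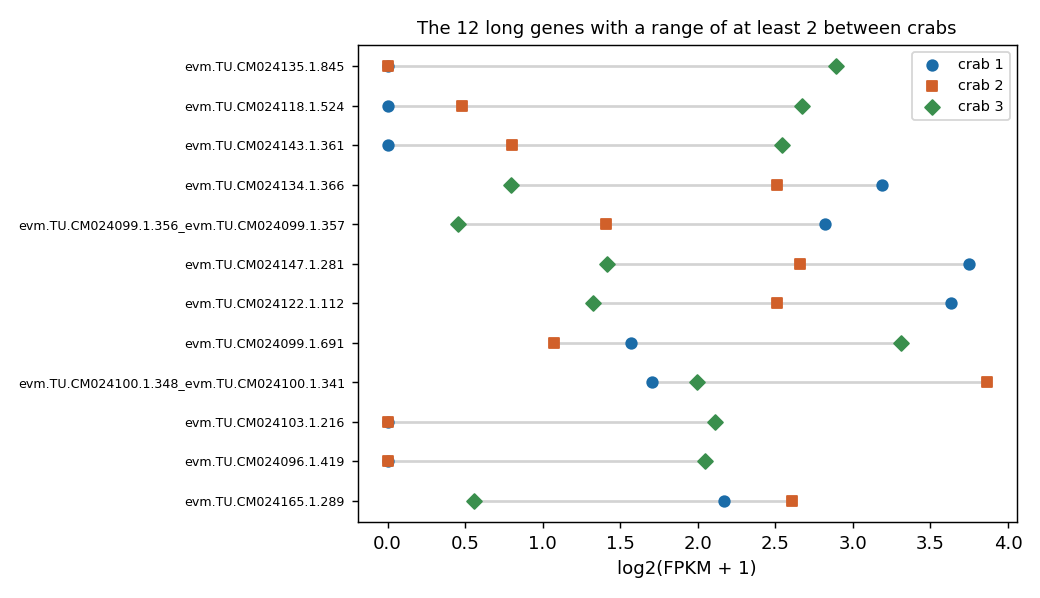
Each row is 1 of the 12 long genes with a range of at least 2, and the x axis gives log2(FPKM + 1) in crab 1 (circles), crab 2 (squares) and crab 3 (diamonds). Crab 3 is highest in 6 genes, and where crabs 1 and 2 are both at 0 the symbols overlap.

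The narrowest range was found in evm.TU.CM024097.1.91 (CM024097.1, 2559186 to 2661801), with 8.25, 7.92 and 7.71 FPKM from 269, 346 and 139 reads. It had no promoter peak in any library, but 3 intragenic regions were shared by all 3. Next, evm.TU.CM024108.1.11 had 6.86, 7.13 and 7.44 FPKM and evm.TU.CM024097.1.494 had 8.03, 7.16 and 7.12 FPKM. Somewhat wider ranges at lower levels were found in evm.TU.CM024135.1.123, with 2.86, 2.93 and 2.48 FPKM, and in evm.TU.CM024142.1.619, with 3.06, 2.58 and 2.70 FPKM. These 5 genes were less even on plain totals, where their log2 ranges were 1.21, 1.12, 1.17, 1.09 and 0.88.

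Most long genes had an accessible promoter. A promoter peak was found for 107 genes (54.9%) in crab 1, 101 (51.8%) in crab 2 and 121 (62.1%) in crab 3, a mean of 56.2% ± 5.26 (SD, n = 3). In all 3 libraries it was found for 96 genes (49.2%), against 23% of all genes listed and 31.4% of the EVM genes in the level class. In no library was it found for 71 genes (36.4%), against 55.2% and 43.3%. A further 13 genes had it in 2 libraries and 15 in 1 library.

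At the same level, the share was higher in longer genes. With 1 to under 10 FPKM it was 38.2% ± 6.79 for genes under 10 kb, 50.2% ± 6.93 from 10 to 50 kb, 51.1% ± 5.46 from 50 to 100 kb and 56.2% ± 5.26 from 100 kb (SD, n = 3 libraries). Genes of 10 to 50 and of 50 to 100 kb did not differ beyond their spread. The long genes exceeded all shorter genes of the class by 10.2, 15.5 and 12.4 percentage points in the 3 libraries, 12.7 ± 2.68 (exact sign-flip test, two-sided, p = 0.25, n = 3). With spans of at least 150 kb the difference was 19.7 points. Without joined models, an alternative that was not planned, it was 9.81 ± 3.65 points. The long genes exceeded genes of 50 to 100 kb by 4.87, 5.47 and 4.99 points, 5.11 ± 0.315. Both differences had 1 direction in every library and were larger than their spread between libraries. All 3 libraries score the same genes, so that this spread does not measure the variation between genes.

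The length of the gene model, as a multiple of 3 or not, moved with the span. In 68.3% of the shorter genes the model length was a multiple of 3, as in models of coding sequence alone whose start is not a TSS, but in only 40.0% of the long genes. Among such models the promoter share was 48.3% ± 4.85 for long and 37.2% ± 5.83 for shorter genes, and the difference was 6.64, 15.2 and 11.4 points in the 3 libraries. Among models of another length it was 61.5% ± 5.98 and 57.2% ± 8.75, and the difference was 2.88, 7.75 and 2.39 points. Within both groups of length the long genes were thus higher in all 3 libraries, but by 4.34 ± 2.96 points in the latter. A length can also be a multiple of 3 by chance, so the former group mixes kinds of model. Its mix may differ between long and shorter genes, so the difference within it does not hold the kind of model constant. Against genes of 50 to 100 kb the differences within the groups were 2.90, 4.18 and 4.11 points (3.73 ± 0.718) and 1.91, 4.003 and 1.68 points (2.53 ± 1.28). These SDs are over libraries of the same genes and do not measure the variation between genes.

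**Figure D3:**
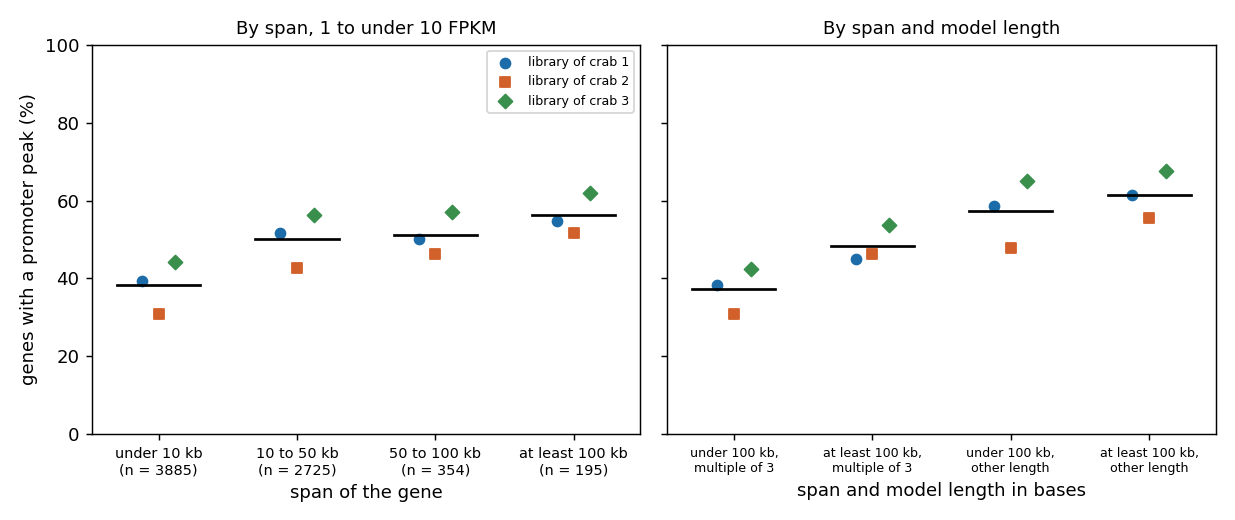
The y axis gives the percentage of genes at 1 to under 10 FPKM with a promoter peak, by span on the left and by span and model length on the right. Symbols are the 3 ATAC libraries and lines their means. The mean rose from 38.2% under 10 kb to 56.2% from 100 kb, and models whose length is a multiple of 3 had lower shares (37.2% and 48.3%) than the others (57.2% and 61.5%).

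The strongest promoters, by the mean fold enrichment over the 3 libraries, did not belong to the highest genes. In evm.TU.CM024140.1.408_evm.TU.CM024140.1.409 (CM024140.1, 17089309 to 17221627, minus strand) the promoter peak reached 13.0, 8.56 and 19.5 in crabs 1, 2 and 3 at a level of 3.64, 4.22 and 2.48 FPKM, and no intragenic region was shared. In evm.TU.CM024161.1.253 it reached 10.4, 7.81 and 15.6 at 2.66, 1.45 and 2.31 FPKM. In evm.TU.CM024121.1.315_evm.TU.CM024121.1.313 it reached 8.27, 9.86 and 13.1 at 2.06, 1.53 and 2.62 FPKM, with no intragenic peak in any library. The promoter peak of evm.TU.CM024125.1.54 reached 9.54, 9.53 and 12, and that of evm.TU.CM024119.1.432_evm.TU.CM024119.1.431 8.41, 8.08 and 12.9. The level of the former was 4.20, 3.49 and 10.1 FPKM and that of the latter 4.20, 4.48 and 1.89 FPKM. Crab 3 thus had the highest level of the former and the lowest of the latter. Both peaks had their highest fold enrichment in crab 3, as did the median over promoter peaks of the long genes. Peak strength was therefore not compared between crabs. Over the 195 genes promoter fold enrichment and mean level had a rho of 0.0218.

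Most accessible regions of the long genes lay inside the gene, but promoters were more densely covered. Of the peaks in promoter and span, 86.5% ± 1.74 were intragenic, 971, 724 and 1173 peaks over 31.3 Mb against 144, 132 and 161 peaks over 0.780 Mb of promoters. The density was 3.10, 2.31 and 3.75 intragenic peaks per 100 kb, a mean of 3.05 ± 0.718, and 18.5, 16.9 and 20.6 promoter peaks per 100 kb, a mean of 18.7 ± 1.87 (SD, n = 3). Promoters were 5.95, 7.32 and 5.51 times as dense in the 3 libraries, 6.26 ± 0.943. The difference of the densities was 15.4, 14.6 and 16.9 peaks per 100 kb (exact sign-flip test, two-sided, p = 0.25, n = 3). Without intragenic peaks at the promoter of another model, 1.73% ± 0.414 of them, the intragenic density was 3.002 ± 0.717. With only peaks of a −log10 q of at least 5 it was 1.64. The promoter density depends on the width taken, and was 31.4 per 100 kb with 1 kb and 13.3 with 3 kb on either side of the TSS.

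Promoter peaks were also stronger. Their median fold enrichment was 4.48 ± 0.566, against 3.53 ± 0.231 for intragenic peaks, a log2 difference of 0.34, 0.24 and 0.44 in crabs 1, 2 and 3 (mean 0.34 ± 0.10). Of the 93.7 ± 14.0 genes per library with both kinds of peak, the strongest peak lay in the promoter in 45.1% ± 1.28. The long genes held a mean of 956 intragenic and 146 promoter peaks per library, and more peaks give a higher maximum. This share therefore cannot be set against the difference of the medians.

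Around the TSS the rise lay within the 2 kb on either side that the promoter definition uses. In long genes at 1 to under 10 FPKM the density was 18.4 ± 1.07 peaks per 100 kb from 2 kb upstream to the TSS and 18.0 ± 2.07 from the TSS to 2 kb downstream, then 1.60 ± 0.356 from 2 to 5 kb and 3.66 ± 0.996 from 5 to 10 kb downstream. Farther in, from 50 to 100 kb, it was 2.93 ± 0.770. The dip from 2 to 5 kb rests on 11, 7 and 10 peaks. Over the whole span the density was 3.22 in the part nearest to the TSS, 3.26 in the middle and 2.68 in the far part when each intragenic span was divided into 3 equal parts, and the near part exceeded the far part by 0.604, 0.450 and 0.565 in the 3 libraries (0.540 ± 0.0798).

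The intragenic density went with the level of the gene. Long genes under 1 FPKM (187 genes) had 1.25 ± 0.0745 intragenic peaks per 100 kb and those at 10 FPKM or more (74 genes) 7.08 ± 1.67. The described genes lay between them in each library, above the former by 1.81, 1.15 and 2.46 (mean 1.81 ± 0.652) and below the latter with differences of −3.87, −3.15 and −5.06 (mean −4.03 ± 0.962). With peaks of a −log10 q of at least 5 the former difference was 1.07. The promoter share had the same order, 18.9% ± 2.16 under 1 FPKM and 72.5% ± 4.34 from 10 FPKM. By span, at 1 to under 10 FPKM, the density was 2.41 ± 0.267 under 10 kb, 3.15 ± 0.539 from 10 to 50 kb and 3.55 ± 0.718 from 50 to 100 kb, so that the long genes lay above the first of these classes and below the last in all 3 libraries. Against all genes under 100 kb the density of the long genes differed by −0.338, −0.228 and 0.202 in the 3 libraries, −0.121 ± 0.285.

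**Figure D4:**
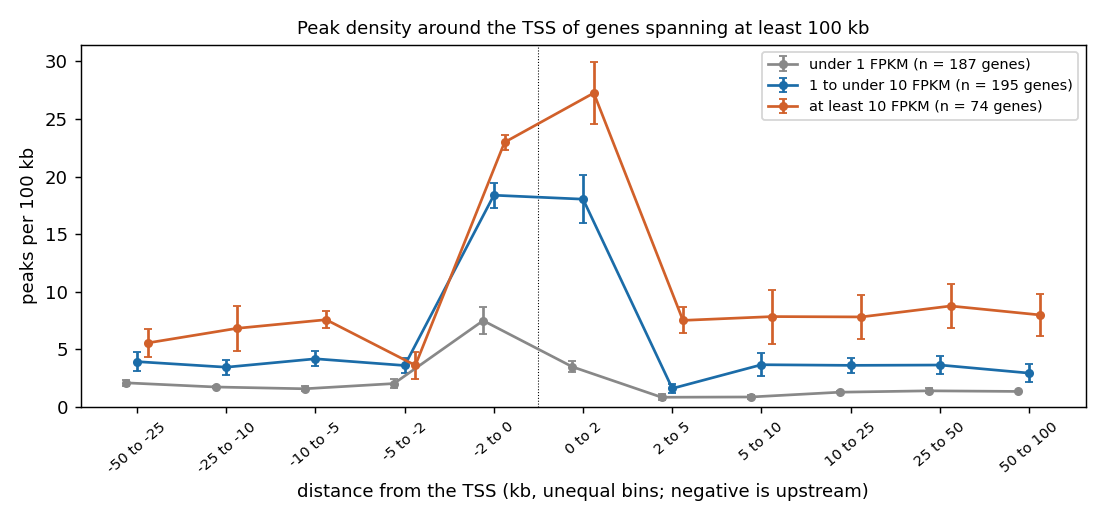
The y axis gives ATAC-seq peaks per 100 kb and the x axis the distance from the TSS in kb, in bins of unequal width with upstream on the left, for genes spanning at least 100 kb in 3 classes of mean level. Points are means and bars SDs over 3 libraries. At 1 to under 10 FPKM the density was 18.4 and 18.0 on either side of the TSS, 1.60 from 2 to 5 kb and 2.93 from 50 to 100 kb, between the lower and the higher class in those bins.

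The flanks of the genes moved with the level as well. From 2 to 50 kb outside the span the density was 3.88 ± 0.671 peaks per 100 kb around the described genes, 2.40 ± 0.216 around long genes under 1 FPKM and 5.98 ± 1.43 around those at 10 FPKM or more. The described genes had fewer peaks inside than in these flanks, with a difference of −0.900, −0.840 and −0.731 in the 3 libraries. Without the promoters of other models, which lie mostly in flanks, the difference was 0.286, 0.0281 and 0.492. Its sign therefore depended on whether those promoters were counted, and the part of the surrounding sequence in the intragenic density was not tested.

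Peaks of the 3 libraries were merged into regions where they overlapped by at least 1 base. Of 177 promoter regions 107 (60.5%) were found in all 3 libraries, against 379 of 1710 intragenic regions (22.2%), and 27.8% of all regions on CM sequences. In 1 library only were 42 promoter regions (23.7%) and 1010 intragenic regions (59.1%). Most intragenic regions were thus seen in a single library. Intragenic peaks also had the lower fold enrichment, and the part of peak strength and depth in this difference was not tested. Of the 379 shared intragenic regions, 12 (3.17%) lay at the promoter of another model.

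At least 1 shared intragenic region was found in 108 long genes (55.4%), against 10.7% of all genes listed and 10.7% of the EVM genes in the level class, whose spans are shorter. By span the share was 2.27% under 10 kb, 15.7% from 10 to 50 kb and 41.0% from 50 to 100 kb. Among the long genes 87 had 0 shared regions, 35 had 1, 19 had 2, 18 had 3, 25 had at least 5 and 4 had at least 10. The 25 genes held 208 of the regions (54.9%). Within the long genes the number followed span only weakly (rho 0.165), and the number per 100 kb followed the mean level (rho 0.350), both as descriptions over 195 genes of the same libraries.

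Among the longest genes the number varied widely. The longest, evm.TU.CM024156.1.180 (CM024156.1, 5845453 to 6544542, minus strand), spanned 699.09 kb and had 1.10, 1.78 and 0.554 FPKM from 18, 39 and 5 reads. It held 0, 2 and 3 intragenic peaks, none shared, and a promoter peak in crabs 1 and 3. The next, evm.TU.CM024155.1.239 (CM024155.1, 7224550 to 7836784, minus strand), spanned 612 kb and had 11.1, 6.95 and 8.42 FPKM. It held 45, 37 and 47 intragenic peaks, of which 24 regions were shared, the highest number among the 195 genes, and no promoter peak. Its strongest shared region (7434549 to 7435092) lay 402 kb from the TSS, with fold enrichments of 10.2, 7.03 and 13.4.

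In evm.TU.CM024161.1.253 (CM024161.1, 7919698 to 8487927, minus strand), 568 kb long, 17 regions were shared. The strongest (8132905 to 8134048), 354 kb from the TSS, reached 14.5, 12.6 and 18.0, above the peak of its own promoter in every crab and the strongest shared intragenic region of the 195 genes by the mean. By contrast, evm.TU.CM024137.1.100, 438 kb long, had 5.48, 2.98 and 5.53 FPKM, a promoter peak of 6.69, 5.02 and 8.74 and 1 shared region. In evm.TU.CM024146.1.329, 419 kb long, 10 regions were shared at 1.75, 2.24 and 0.274 FPKM. In order of span, these 5 genes hold the starts of 2, 5, 2, 0 and 5 other models.

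Per 100 kb the most shared regions were found in genes near the lower limit of the span. In evm.TU.CM024128.1.243 (CM024128.1, 7522151 to 7632509, minus strand) there were 9, or 8.31 per 100 kb, with 10 intragenic peaks in each crab and 4.69, 3.17 and 0.665 FPKM. In evm.TU.CM024097.1.155 there were 8 (7.92 per 100 kb) and no promoter peak, at 3.18, 3.27 and 1.64 FPKM. In evm.TU.CM024147.1.281 there were 8 (7.86 per 100 kb) at 12.4, 5.30 and 1.66 FPKM, a 7.50-fold difference between crabs 1 and 3. Next came evm.TU.CM024154.1.203 with 9 regions (7.59 per 100 kb) at 9.73, 6.09 and 7.14 FPKM and evm.TU.CM024158.1.521 with 8 (7.05 per 100 kb) at 4.66, 3.64 and 3.68 FPKM. Such density was found both in genes with even levels and in genes whose levels differed between crabs.

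**Figure D5:**
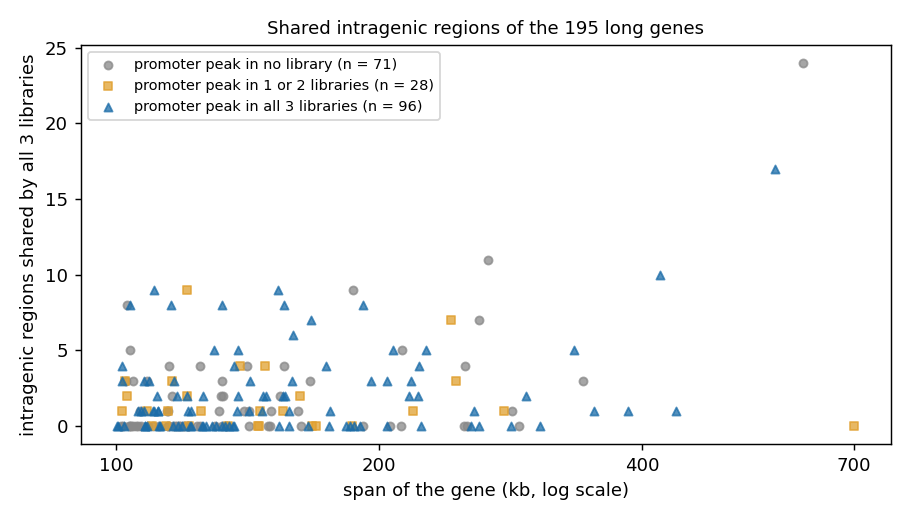
The x axis gives the span in kb on a log scale and the y axis the number of intragenic regions found in all 3 ATAC libraries, for each of the 195 long genes. Symbols mark a promoter peak in no library (71 genes), 1 or 2 libraries (28) or all 3 (96). The longest gene has 0 regions and the next longest 24.

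Promoter and intragenic accessibility were loosely related among the long genes. Where the promoter peak was found in all 3 libraries, 59 of 96 genes (61.5%) held a shared intragenic region, and where it was found in none, 31 of 71 (43.7%) did. Where it was found in 1 or 2 libraries, 18 of 28 genes (64.3%) did, so the share was not graded by the number of libraries. In 37 genes only the promoter was accessible in all 3 libraries, and in 50 genes neither the promoter nor an intragenic region was. Over all 195 genes promoter fold enrichment and shared regions per 100 kb had a rho of 0.126. The median level was 3.23 FPKM in the 96 genes, 3.19 FPKM in the 28 and 2.48 FPKM in the 71. Between the 96 and the 71 genes this was a difference of 0.28 on the log2(FPKM + 1) scale. When each crab's level was set against its own peaks, the difference was 0.07, 0.02 and 0.16 (mean 0.08), and without crab 3 the former difference was 0.09. The level is also what chose the genes, and this difference is a description.

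No peak in promoter or span in any library was found for 9 long genes (4.62%), against 42.7% of all genes listed, most of which have shorter spans. The part of span and level in this contrast was not tested. The longest, evm.TU.CM024165.1.289 (CM024165.1, 6471420 to 6683177), spanned 212 kb and had 80, 156 and 6 reads, a level of 3.49, 5.08 and 0.473 FPKM, and the starts of 5 other models lie in its span. In evm.TU.CM024167.1.267 the level was 2.18, 3.26 and 1.32 FPKM, in evm.TU.CM024123.1.88 3.28, 2.11 and 3.45 FPKM and in evm.TU.CM024102.1.81 0.650, 1.21 and 2.94 FPKM, the last from 2, 5 and 5 reads. The list also holds evm.TU.CM024135.1.845, with reads in crab 3 alone. Of these 5 genes, evm.TU.CM024167.1.267 and evm.TU.CM024123.1.88 were above 1 FPKM in every crab.

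Most of the long genes overlapped no other model. The span of 32 long genes (16.4%) held the start of another model, 65 starts in all. The share was 6.31% over all genes listed, most of which have shorter spans. A longer span has more room for a start, and the part of span in this contrast was not tested. No other model overlapped 157 of the long genes. Among the 157, 82 (52.2%) had a shared intragenic region and 76 (48.4%) a promoter peak in all 3 libraries. Only evm.TU.CM024163.1.36_evm.TU.CM024163.1.35 and evm.TU.CM024163.1.35 overlapped each other among the 195. They have 1 end in common, at 904421 on CM024163.1, so that 16 regions count for both. Their levels were 2.41, 3.53 and 1.71 FPKM for the joined model and 1.17, 1.52 and 0.615 FPKM for the shorter one.

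Of the 195 genes, 28 (14.4%) were on the lists of integrated differential genes between molting stages, against 3.15% of all genes listed and 4.93% of the EVM genes in the level class. The lists of Mu_A against Mu_C were built in part on the inter-molt libraries, so that their count is no independent evidence, while the other lists with long genes compare other periods. All require a differential peak assigned to the gene, and the part of span in these counts was not tested. By list, 15 were down-regulated in Mu_A vs Mu_C, 14 up-regulated and 3 down-regulated in Mu_D vs Mu_E. On each of the 2 lists of Mu_E vs Mu_A there was 1. Here A, C, D and E are the post-molt, inter-molt, pre-molt and molt periods. The paper reads direction as the period named last against the period named before it. Up-regulated in Mu_D vs Mu_E thus means higher at molt, and down-regulated in Mu_A vs Mu_C lower at inter-molt. The longest were evm.TU.CM024136.1.163 (386 kb, 1.11, 2.28 and 1.12 FPKM), evm.TU.CM024110.1.57 (260 kb, 3.15, 3.16 and 8.43 FPKM) and evm.TU.CM024144.1.256 (221 kb, 1.91, 2.12 and 1.41 FPKM), each with a promoter peak in all 3 libraries. Next were evm.TU.CM024165.1.169 (213 kb, 4.74, 6.42 and 0.857 FPKM) and evm.TU.CM024119.1.665 (206 kb, 2.83, 2.96 and 0.854 FPKM), without a promoter peak in any library.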

How the data were processed

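According to the authors, RNA-seq reads were trimmed with Trimmomatic, aligned with HISAT2 (2.0.5) and counted per gene with featureCounts (1.5.0-p3), without reads of several positions. The authors deposited FPKM beside gene positions and lengths in bases. The methods speak both of reads from start to end of a gene and of the exon model, so whether intron reads were counted is not settled, and no source used here states the use of strand. In each library the product of FPKM and length was a whole number of steps of 1 size (100% of values within 1%), which gave the reads. Since no groups were compared, no count test was run. ATAC-seq reads were aligned with BWA, and the authors called peaks per library with MACS2. The deposited peaks have a score (from the q-value), a ratio (fold enrichment), −log10 p and −log10 q. Peaks were merged across libraries at 1 base of overlap. Positions are on the assembly of the files, counted from 1, and 0 identifiers matched the RefSeq table, so no sequence is printed. Labels number crabs 1 to 3 in both assays, and the methods say that each crab's sample was divided, while the peak names of the third list carry another number. Across 7395 genes the deviations of level and promoter from their means correlated with 0.0516, 0.0236 and 0.0326 within numbers, and across 124 of the long genes with −0.165, −0.169 and −0.194. Differences used the exact sign-flip test over 3 libraries, with SDs over libraries. The genes and lists were chosen with earlier results of these data known. Named were the 5 longest, the 5 with most shared regions per 100 kb, the 5 strongest promoters, the 5 widest and 5 narrowest ranges, the genes nearest the limits, up to 5 without peaks and the 5 longest on the lists. Alternatives changed the scaling, the pseudocount (1 to 0.1), the span (150 kb), the promoter (1 or 3 kb), the −log10 q (5) and the crabs. Functions were tested on simulated data. Python 3.11.15, numpy 2.4.6, scipy 1.17.1, pandas 2.3.3 and matplotlib 3.10.9 were used.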

Additional observations from a re-analysis of the deposited data

How the results depend on the processing

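Of 105 alternative values 0 changed sign, which only the differences could do, since counts, shares, densities and SDs cannot be negative. By the rule used, 15 moved, being values that shifted by more than the spread between libraries or counts and shares of genes that shifted over 1.5 times. The promoter density and all differences but that of the level were held to their sign alone, which the promoter density could not change. Some of these values shifted by more than their spread. The share of long genes with a 4-fold difference between crabs (6.15%) was 21.1% on plain totals, 25.1% with a pseudocount of 0.1 and 0.909% where each crab had to have 1 to under 10 FPKM, and ranged from 0.524% to 4.84% with 1 crab left out. The median SD (0.50) was 0.77 on plain totals and 0.70 with a pseudocount of 0.1, and ranged from 0.25 to 0.54 with 1 crab left out. The lowest of both ranges came without crab 3. After scaling by the median ratio of genes the share was 5.38% and the median SD 0.48. The level difference by promoter peak (0.28) was 0.17 on plain totals, 0.37 with a pseudocount of 0.1, 0.18 for spans of at least 150 kb, 0.12 with peaks of a −log10 q of at least 5 and 0.0927 to 0.30 with 1 crab left out. With the crabs paired by number (replicate block) it was 0.0802. The intragenic density (3.05) was 1.64 with peaks of a −log10 q of at least 5. Limits of 1 to under 10 FPKM in every crab leave little room for a range of 2, so the 0.909% was largely fixed by that filter. The cause of the other shifts was not tested, except that with 2 crabs the range is taken over fewer samples. The promoter share against shorter genes lay between 8.66 and 19.7 points, the promoter density between 13.3 and 31.4 per 100 kb and the intragenic density against long genes under 1 FPKM between 1.07 and 2.17. A 4-fold range in genes of under 30 mean reads rests on few reads. ATAC read totals are unknown, so a region missing from 1 library may lie below its depth.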
